A study of Homo sapiens with 4 samples.

Results

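The genes examined here encode the enzymes of cholesterol and fatty acid synthesis and the proteins that control them. They were taken from a fixed list of 31 names, which was matched by gene name in the FPKM table and by gene identifier in the count table. All 31 were found, among 58735 genes counted. All 31 also passed the filter for testing, which asked for at least 10 reads in at least 1 library and left 19895 genes. Of the 31 genes, 7 belong to the mevalonate arm, 11 to the squalene and sterol arm, 4 to regulators and sterol transport, and 9 to the fatty acid arm.

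RNA was sequenced from MHCC-97H cells, an established metastatic line of human hepatocellular carcinoma (HCC), after 24 h with PBS or with migrasomes (Migs), with 1 library for each of 4 conditions. Migs are vesicles that migrating cells leave behind on their retraction fibers. Cells of all 4 libraries were wild type and belonged to the batch labelled 1. They received PBS as control, 2 μg of Migs from MHCC-97H cells kept in normoxia (normo-Migs), 2 μg from MHCC-97H cells kept in hypoxia (hypo-Migs), or 2 μg from hypoxic MHCC-97H cells with knockout of CD147 (CD147KO-Migs). The knockout was therefore in the cells that gave the Migs and not in the cells that were sequenced. Donor and recipient cells were of the same line, so reads on a gene cannot be assigned to one or the other. The comparison with PBS asked what Migs changed, the comparison of hypo-Migs with normo-Migs what hypoxia of the donor cells added, and the comparison with CD147KO-Migs what loss of CD147 in the donor cells removed.

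The PBS library had 33882496 reads on genes, the normo-Migs library 34559968, the hypo-Migs library 40285223 and the CD147KO-Migs library 35043203. Levels of 1 gene across libraries are given in CPM, counts per 1000000 reads on genes after TMM scaling. Levels of different genes are compared in the authors' FPKM, which also divides by gene length. Lists of 4 values follow the order PBS, normo-Migs, hypo-Migs and CD147KO-Migs throughout, and lists of 3 log2 fold changes against PBS the order of the Mig libraries. Pairs of libraries were compared by edgeR's two-sided exact binomial test with Benjamini-Hochberg adjustment over the 19895 genes. A gene passed the criteria of the study when its adjusted p was 0.05 or less and its absolute log2 fold change at least 1. With 1 library per condition the test compares libraries and not conditions, no difference has a replicate check, and the 95% intervals cover counting error only. In bulk RNA, fewer cells with a transcript and less of it per cell cannot be told apart.

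The library labelled PBS stood apart from the other 3 before any of these genes was considered. It had 3 reads or fewer on 251 genes that had at least 100 reads in each Mig library, whereas no Mig library had such genes. Mitochondrial genes took 2.69% of its reads and 5.00%, 5.16% and 5.06% of those of the Mig libraries. Of the 14 markers listed for hepatocytes and liver cancer, 7 passed the filter for testing, and the defining markers ALB, AFP and GPC3 had no reads in all 4 libraries. HNF4A, a transcription factor of hepatocytes, had 134, 146, 246 and 141 reads, and FGB, a fibrinogen chain, 0, 561, 827 and 832 reads. SERPINA1, of the same list, went the other way, with 25, 2, 9 and 10 reads. Of the 14, 9, 8, 7 and 6 were at 0 reads in the 4 libraries. The 14 summed to 4128 CPM with PBS and to 5563, 6173 and 6601 CPM with the Migs, which consisted mostly of the keratins KRT8 (105571, 129218, 167573 and 157507 reads) and KRT18 (36742, 59588, 79098 and 72651 reads), which other epithelial cells also express. Fibroblast and stromal markers, 8 in all, summed to 23.6 CPM with PBS and to 209, 219 and 221 CPM with the Migs. COL1A1 was the most abundant of them, with 681, 3551, 4017 and 3472 reads, whereas COL1A2 had 2, 0, 0 and 0 reads. Of the 6 tested, 5 passed the criteria upwards in each comparison with PBS, and 1 was lower without passing. Of all genes tested, 16.5%, 17.4% and 16.6% passed upwards. The median log2 fold changes of the 6 were 3.51, 3.69 and 3.71. The 7 endothelial markers summed to 3.42, 4.75, 5.58 and 5.57 CPM, with PECAM1 highest in the Mig libraries (16, 118, 146 and 131 reads) and CDH5 with PBS (84, 30, 72 and 59 reads). The 8 leukocyte markers summed to 0.695, 2.85, 3.84 and 4.45 CPM, led by CD14 (14, 47, 78 and 86 reads), while CD3E and MS4A1 were at 0 in every library. The 5 adipocyte markers summed to 0.579, 0.734, 0.349 and 0.799 CPM, led by PLIN1 (18, 21, 12 and 28 reads), and ADIPOQ and LEP were at 0. The part of these differences in the comparisons with PBS was not tested. Whether the cells of the library labelled PBS were the same as those of the Mig libraries was not tested either, so in every fold change against PBS below, an effect of the Migs and a difference between the cells cannot be told apart. The name of the line comes from the labels, and the identity of the cells was not tested in any of the 4 libraries. The comparisons among the 3 Mig libraries are given separately.

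Cholesterol is built from acetyl-CoA through mevalonate, squalene and lanosterol, and fatty acids are built from the same acetyl-CoA through malonyl-CoA. Transcription of both pathways is driven by the sterol regulatory element-binding proteins (SREBPs), which the protein SCAP escorts from the endoplasmic reticulum to the Golgi, where proteases release their active part. When sterols are abundant, INSIG proteins hold SCAP in the endoplasmic reticulum, and LXR receptors, which sense oxysterols, turn on genes for sterol efflux. In liver cancer these pathways supply membranes, lipid droplets and signalling lipids.

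Levels among the 31 genes spanned about 2 orders of magnitude. The highest in FPKM was SCD, the desaturase that makes oleic acid, at 111, 194, 189 and 181 FPKM. FASN, the fatty acid synthase, was next with PBS at 85.8 FPKM, and ACLY, which makes cytosolic acetyl-CoA from citrate, was next with the Migs at 77.9, 72.2 and 70.6 FPKM. At the low end, MVK had 1.26, 2.81, 2.21 and 2.70 FPKM and CYP51A1 2.05, 2.30, 1.98 and 2.09 FPKM. MVK is the mevalonate kinase, and CYP51A1 the lanosterol demethylase. CYP51A1 had the fewest reads of all 31, 254, 283, 287 and 265, and its 7.36 CPM with PBS had a 95% Wilson interval of 6.51 to 8.32 CPM. The 31 genes summed to 3652, 4219, 3892 and 3966 CPM. That sum was thus lowest with PBS and highest with normo-Migs. By arm, the mevalonate genes summed to 212, 307, 272 and 298 CPM and the squalene and sterol genes to 507, 725, 662 and 681 CPM. The regulators and transport genes, by contrast, summed to 600.2, 549, 513 and 557 CPM, highest with PBS, and the fatty acid genes to 2333, 2639, 2446 and 2430 CPM.

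Against PBS, the enzymes of sterol synthesis were mostly higher in the Mig libraries, and a smaller set of genes was lower. With normo-Migs, 6 of the 31 genes passed the criteria upwards and 0 downwards, where 16.5% and 10.7% of all genes tested did so. With hypo-Migs, 5 passed upwards and 1 downwards (all genes 17.4% and 10.9%), and with CD147KO-Migs, 6 and 1 (all genes 16.6% and 10.9%). With an assumed coefficient of variation of 0.4 between libraries, 0 of the 31 passed in any of these comparisons, where 1535, 1633 and 1575 of all genes tested did. DESeq2 over the 4 libraries also passed 0 of the 31, but it passed 0 of all genes tested, so that count says nothing about the 31. Shares of 6 in 31 or 5 in 31 are near the share of all genes that passed upwards. The 31 genes were more abundant than most, with a median of 1650 reads against 344.5 for all genes tested. Among the 10447 genes with at least the mean reads of CYP51A1, 9.73%, 10.1% and 10.1% passed upwards in the 3 comparisons, and 4.36%, 4.54% and 4.44% downwards. By the adjusted p alone, with no limit on the fold change, 19, 18 and 19 of the 31 genes were higher in the 3 comparisons and 6, 10 and 7 lower. The same rule called 37.0%, 37.7% and 36.5% of all genes higher in the 3 comparisons and 32.7%, 33.6% and 33.4% lower, and of the 10447 genes as abundant 44.1%, 43.8% and 43.6% higher and 39.9%, 41.2% and 41.2% lower. The median log2 fold change of the 31 genes was 0.45, 0.27 and 0.29, and that of all genes tested 0.028, 0.042 and 0.031. After removal of a trend on GC content and gene length the medians of the 31 genes depended on how the residuals were centred, at 0.40, 0.26 and 0.25 when centred on their median and at 0.13, -0.024 and -0.032 on their mean, where all genes fitted had medians of -0.23, -0.24 and -0.25. With the residuals centred on their mean, 17, 15 and 15 of the 31 genes were higher than PBS. On their median 23, 18 and 21 were higher, as without the removal. Of the genes that had passed the adjusted p upwards, SREBF2, ACACA, FADS2, NSDHL and EBP turned negative in 1 comparison or more on the mean. The centrings differ by a shift common to all genes, so these changes of sign are not particular to the 31 genes. These 3 comparisons share the library labelled PBS, so they are not independent of each other.

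In the mevalonate arm, HMGCS1, the synthase that joins acetoacetyl-CoA and acetyl-CoA, differed most from PBS of all 31 genes. Its gene lies at chr5:43289395-43313512 on the minus strand (GRCh38). It was at 15.9 CPM after PBS, 71.7 after normo-Migs, 64.1 after hypo-Migs and 64.3 after CD147KO-Migs. The 3 Mig libraries were close together and far above PBS, and the log2 fold changes were 2.17 (2.04 to 2.31), 2.01 (1.88 to 2.15) and 2.01 (1.88 to 2.16), with 95% intervals in brackets. MVK, which phosphorylates mevalonate, was at 8.20 CPM after PBS, 18.3 after normo-Migs, 14.4 after hypo-Migs and 17.7 after CD147KO-Migs. Its log2 fold changes were 1.16 (0.96 to 1.37), 0.81 (0.61 to 1.03) and 1.10 (0.90 to 1.32), past the criteria with normo-Migs and CD147KO-Migs and short of 1 with hypo-Migs, the lowest of the Mig libraries. MVK overlaps MMAB on the opposite strand, a gene with 501, 707, 828 and 709 reads. ACAT2, the cytosolic thiolase that makes acetoacetyl-CoA, and IDI1, the isopentenyl diphosphate isomerase, were higher by 0.83, 0.69 and 0.77 and by 0.77, 0.73 and 0.85 on the log2 scale. ACAT2 overlaps TCP1 on the opposite strand, a gene with 12811, 17285, 19920 and 16081 reads. The next kinase, PMVK, went the other way, at 38.6, 28.9, 24.2 and 32.4 CPM, highest with PBS and lowest with hypo-Migs. Its log2 fold changes were -0.42 (-0.54 to -0.30), -0.67 (-0.79 to -0.55) and -0.25 (-0.37 to -0.14). The last members of the arm, MVD and FDPS, which make isopentenyl and farnesyl diphosphate, differed less, with log2 fold changes of 0.048, -0.18 and 0.027 for MVD and -0.0064, -0.23 and -0.11 for FDPS.

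In the squalene and sterol arm, 8 of 11 genes were higher than PBS by the adjusted p in each Mig library, and MSMO1 and TM7SF2 passed the criteria in all 3. By the adjusted p, 37.0%, 37.7% and 36.5% of all genes and 44.1%, 43.8% and 43.6% of those as abundant were higher. Of the 8, EBP with hypo-Migs (-0.024) and NSDHL with CD147KO-Migs (-0.032) turned negative without the GC and length trend, with residuals centred on their mean. That centring shifts all genes alike, and all genes fitted then had medians of -0.24 and -0.25 in these comparisons. MSMO1, the oxidase that removes the methyl groups at carbon 4 of the sterol, lies at chr4:165327623-165343160 on the plus strand and was at 16.6 CPM after PBS, 38.9 after normo-Migs, 35.5 after hypo-Migs and 38.1 after CD147KO-Migs. Its log2 fold changes were 1.23 (1.09 to 1.37), 1.09 (0.95 to 1.24) and 1.20 (1.06 to 1.34). All 3 Mig libraries lay above PBS and differed little among themselves. TM7SF2, a sterol C14 reductase, had log2 fold changes of 1.08 (0.88 to 1.30), 1.07 (0.88 to 1.28) and 1.19 (0.99 to 1.40), with intervals that reached below 1. It overlaps VPS51 on the same strand, a gene with 3275, 2726, 3051 and 2956 reads. SQLE, the squalene epoxidase and a rate-limiting enzyme of the arm, was at 29.7 CPM after PBS, 52.2 after normo-Migs, 49.98 after hypo-Migs and 51.1 after CD147KO-Migs. That is a log2 fold change of 0.81 (0.70 to 0.93), 0.75 (0.64 to 0.86) and 0.78 (0.67 to 0.89), past the adjusted p and short of the fold limit. DHCR7, which carries out the last step towards cholesterol, was at 105, 148, 132 and 134 CPM, lowest with PBS and highest with normo-Migs. FDFT1, the squalene synthase, SC5D, a sterol desaturase, and EBP, a sterol isomerase, were also higher, by 0.73, 0.64 and 0.64, by 0.60, 0.55 and 0.54 and by 0.45, 0.27 and 0.38. NSDHL, which works beside MSMO1 at carbon 4, was at 37.1 CPM after PBS, 57.6 after normo-Migs, 50.5 after hypo-Migs and 45.3 after CD147KO-Migs. Its log2 fold change fell short of 1 throughout, at 0.63 (0.53 to 0.74), 0.44 (0.34 to 0.55) and 0.29 (0.18 to 0.40), and it was the gene of this arm that differed most among the Migs.

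Not all sterol enzymes were higher. LSS, the cyclase that closes lanosterol from squalene epoxide, was at 70.6 CPM after PBS, 58.9 after normo-Migs, 52.3 after hypo-Migs and 57.6 after CD147KO-Migs. All 3 Mig libraries lay below PBS, with log2 fold changes of -0.26 (-0.35 to -0.18), -0.43 (-0.52 to -0.35) and -0.29 (-0.38 to -0.21). HSD17B7, a keto reductase at carbon 3, was at 12.4, 10.1, 9.62 and 11.7 CPM, highest with PBS. Its log2 fold changes were -0.29 (-0.50 to -0.085), -0.36 (-0.57 to -0.16) and -0.083 (-0.28 to 0.12), and the last of these did not pass. For CYP51A1, the log2 fold changes of 0.17, -0.041 and 0.040 did not pass, and at its depth the intervals reached from -0.29 to 0.42.

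**Figure D1:**
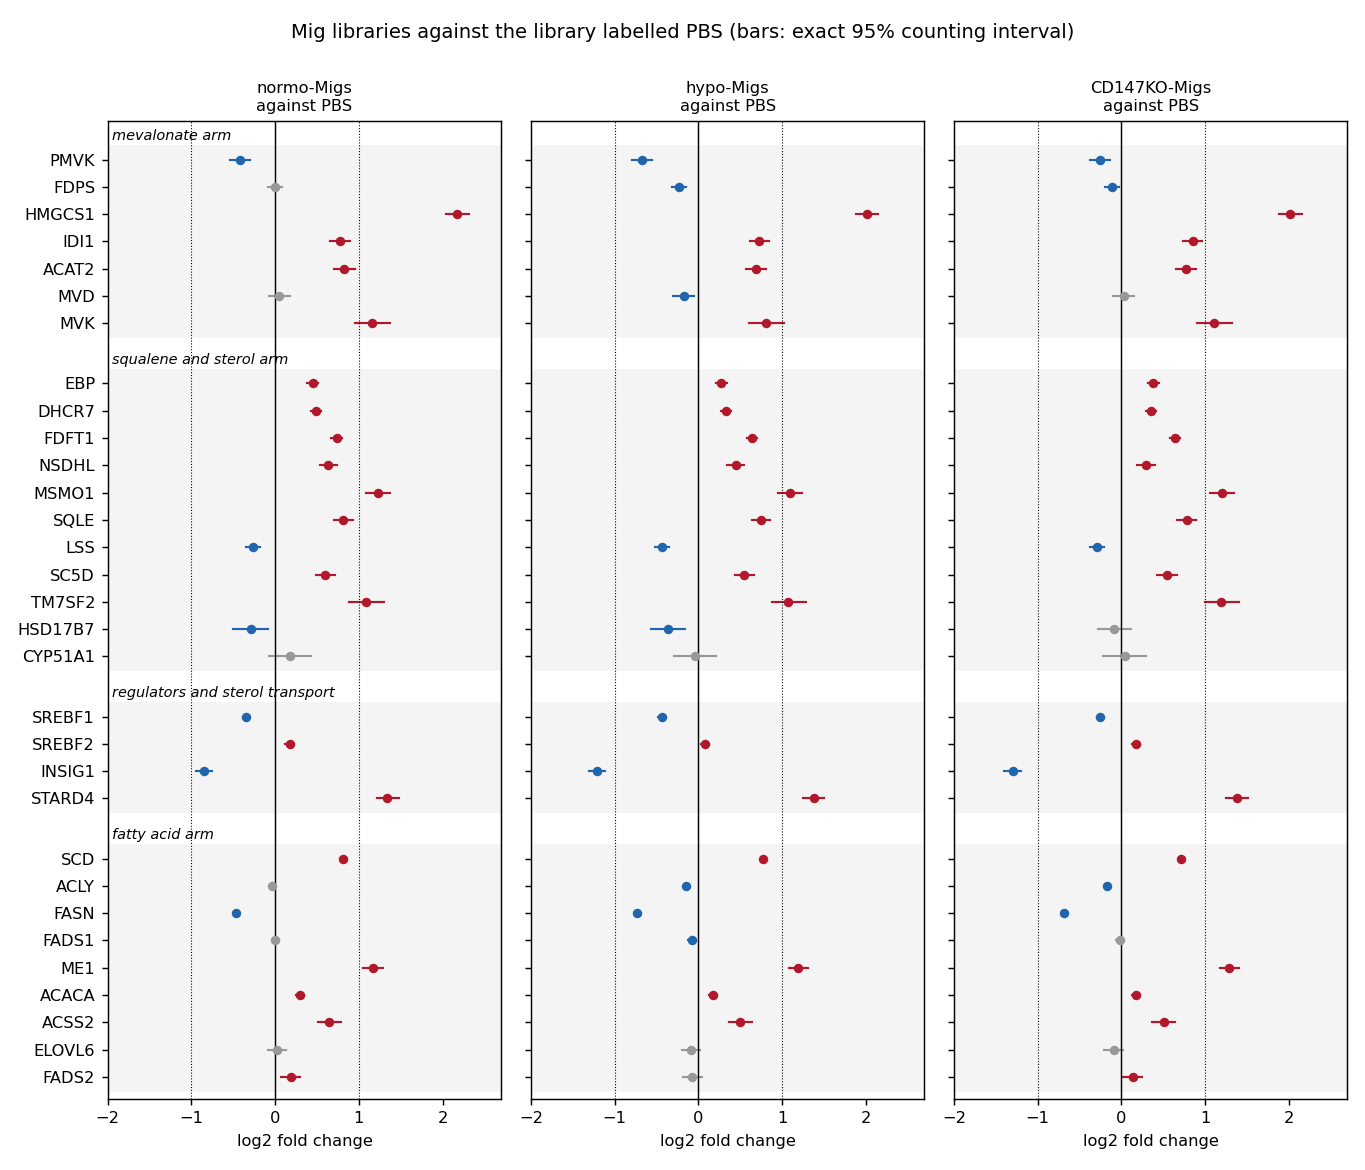
Log2 fold change of each of the 31 genes in the 3 Mig libraries against the library labelled PBS, with exact 95% counting intervals as bars. Red points are higher and blue points lower at an adjusted p of 0.05 or less, grey points did not pass, and the dotted lines mark a log2 fold change of 1 in either direction, which HMGCS1, STARD4, MSMO1, TM7SF2 and ME1 exceeded in all 3 panels.

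Among the regulators, the transcripts of the SREBPs went different ways, slightly higher than PBS for SREBF2 and lower for SREBF1. With the GC and length trend removed and residuals centred on their mean, SREBF2 was at -0.065, -0.13 and -0.080. That centring shifts all genes alike, and all genes fitted then had medians of -0.23, -0.24 and -0.25. The signs there therefore do not decide the contrast. SREBF2, which encodes the SREBP that mainly drives sterol genes, was at 174 CPM after PBS, 196 after normo-Migs, 184 after hypo-Migs and 197 after CD147KO-Migs. The log2 fold changes were 0.17 (0.12 to 0.22), 0.080 (0.031 to 0.13) and 0.18 (0.13 to 0.23), past the adjusted p but small. SREBF1, whose SREBP-1c form mainly drives fatty acid genes, was at 329 CPM after PBS, 259 after normo-Migs, 244 after hypo-Migs and 277 after CD147KO-Migs. It was highest with PBS and lowest with hypo-Migs, with log2 fold changes of -0.35 (-0.39 to -0.31), -0.44 (-0.48 to -0.40) and -0.25 (-0.29 to -0.21). INSIG1, the membrane protein that retains SCAP and is itself an SREBP target, lies at chr7:155297776-155310235 on the plus strand and was at 76.8 CPM after PBS, 42.6 after normo-Migs, 33.2 after hypo-Migs and 31.2 after CD147KO-Migs. PBS lay far above all 3 Mig libraries. The log2 fold changes were -0.85 (-0.94 to -0.76), -1.21 (-1.31 to -1.12) and -1.30 (-1.40 to -1.20), so that INSIG1 was the only one of the 31 genes to pass the criteria downwards, with hypo-Migs and with CD147KO-Migs. STARD4, a carrier that moves cholesterol between membranes and is also an SREBP target, lies at chr5:111496033-111512590 on the minus strand and was at 19.9 CPM after PBS, 50.6 after normo-Migs, 51.9 after hypo-Migs and 51.8 after CD147KO-Migs. The Mig libraries were within 1.03-fold of each other, and the log2 fold changes against PBS were 1.34 (1.22 to 1.47), 1.38 (1.26 to 1.51) and 1.38 (1.25 to 1.51). Its antisense gene STARD4-AS1 had 11, 105, 169 and 106 reads, lowest with PBS as well. INSIG1 and STARD4 thus lay on opposite sides of PBS in all 3 Mig libraries.

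Promoter sequences are shown for SREBF2, which held the sterol regulatory element, and for INSIG1, MSMO1 and STARD4, which passed the criteria in opposite directions. RefSeq (GRCh38.p14) gave promoters, from 250 bases before the start to 50 after it, for 27 of the 31 genes, with 37 entries. They were searched on both strands for the sterol regulatory element (TCACNCCAC), the NF-Y box (CCAAT) and the Sp1 box (GGGCGG), which can share bases in a match. The first was in 1.13% of 35116 promoters and, among the 27 genes, in SREBF2 alone, where it began 133 bases before the start. The NF-Y box was in 67.6% of the 37 entries (21 of 27 genes) and in 34.6% of all promoters. The Sp1 box was in 89.2% of the entries (26 of 27 genes) and in 45.0% of all promoters. A match describes the letters in the window and not a bound site. Below are bases before both the RefSeq and the GENCODE start of SREBF2 (chr22:41832855-41833078, plus strand, 224 bases), INSIG1 (chr7:155297628-155297775, plus strand, 148 bases), MSMO1 (chr4:165327419-165327622, plus strand, 204 bases) and STARD4 (chr5:111512591-111512785, minus strand, 195 bases), each 5′ to 3′ with matches in capitals.
SREBF2: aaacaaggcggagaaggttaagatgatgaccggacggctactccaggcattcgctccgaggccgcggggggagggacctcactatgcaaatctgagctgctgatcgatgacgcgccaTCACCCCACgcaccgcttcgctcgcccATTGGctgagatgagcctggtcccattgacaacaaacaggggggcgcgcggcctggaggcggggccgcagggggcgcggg
INSIG1: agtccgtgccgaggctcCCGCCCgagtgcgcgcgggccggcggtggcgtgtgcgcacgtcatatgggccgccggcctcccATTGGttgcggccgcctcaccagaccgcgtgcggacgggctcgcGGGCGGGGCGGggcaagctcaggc
MSMO1: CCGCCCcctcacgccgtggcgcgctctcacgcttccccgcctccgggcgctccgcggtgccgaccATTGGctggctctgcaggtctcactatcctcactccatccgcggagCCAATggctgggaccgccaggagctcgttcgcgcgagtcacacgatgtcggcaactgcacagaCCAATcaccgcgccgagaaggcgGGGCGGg
STARD4: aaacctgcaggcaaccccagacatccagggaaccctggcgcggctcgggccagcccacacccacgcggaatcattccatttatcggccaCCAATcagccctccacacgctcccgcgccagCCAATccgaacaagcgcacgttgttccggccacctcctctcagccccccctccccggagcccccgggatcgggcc
These stretches differ in length and leave out part of the searched windows, so the matches in them do not compare the genes.

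The fatty acid arm was split. SCD, the most abundant gene of the set, was at 598 CPM after PBS, 1049 after normo-Migs, 1023 after hypo-Migs and 982 after CD147KO-Migs. Its log2 fold changes were 0.81 (0.79 to 0.83), 0.77 (0.75 to 0.80) and 0.71 (0.69 to 0.74), short of 1, with narrow intervals because of its 20653 to 41061 reads. ME1, the malic enzyme that supplies NADPH, lies at chr6:83210389-83431071 on the minus strand and was at 25.3 CPM after PBS, 56.8 after normo-Migs, 57.9 after hypo-Migs and 61.8 after CD147KO-Migs. It passed the criteria in all 3 comparisons, with log2 fold changes of 1.16 (1.05 to 1.28), 1.19 (1.08 to 1.31) and 1.29 (1.17 to 1.40). FASN, by contrast, was highest with PBS, at 805 CPM after PBS, 582 after normo-Migs, 485 after hypo-Migs and 501 after CD147KO-Migs. The log2 fold changes were -0.47 (-0.50 to -0.44), -0.73 (-0.76 to -0.71) and -0.69 (-0.71 to -0.66), below PBS in every Mig library. ACACA, the acetyl-CoA carboxylase that feeds FASN with malonyl-CoA, was at 167, 205, 189 and 189 CPM, slightly lowest with PBS. ACLY was at 419, 409.9, 380.1 and 372 CPM, with log2 fold changes of -0.032 (-0.066 to 0.0017), -0.14 (-0.17 to -0.11) and -0.17 (-0.21 to -0.14), of which the first did not pass. ACSS2, which makes acetyl-CoA from acetate, was higher by 0.64, 0.50 and 0.51, and ELOVL6, an elongase, did not pass in any of the 3 comparisons. FADS1, a desaturase of polyunsaturated fatty acids, had log2 fold changes of 0.0025, -0.074 and -0.017. FADS2, its neighbour and partner desaturase, was at 36.2, 41.1, 34.5 and 39.8 CPM, and only normo-Migs and CD147KO-Migs passed the adjusted p, with 0.19 and 0.14. FADS1 and FADS2 overlap on opposite strands, and FADS2 also overlaps FEN1 (5543, 5762, 6425 and 5818 reads), so their reads may be shared. Thus the synthase of palmitate was lower than in the PBS library while the desaturase that acts on its products was higher.

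Taking the libraries by rank, PBS was below all 3 Mig libraries for 18 of the 31 genes (42.7% of all genes tested) and above all 3 for 8 (39.3%). The 8 were PMVK, FDPS, LSS, HSD17B7, SREBF1, INSIG1, ACLY and FASN. For 20 of the 31 genes (64.5%) the gap from PBS to the nearest Mig library was larger than the whole range among the Mig libraries, a share of 70.8% in the 10447 genes as abundant. Gaps of that kind were thus no more common among the 31 genes than among genes as abundant. The coefficient of variation over the 3 Mig libraries had a median of 5.72% in the 31 genes and 4.92% in the genes as abundant.

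Among the 3 Mig libraries, none of the 31 genes passed the criteria in any pair, but small differences ran mostly one way, with hypo-Migs lowest. Over all genes, 4.9% passed the criteria between hypo-Migs and normo-Migs, 5.04% between hypo-Migs and CD147KO-Migs, and 4.91% between normo-Migs and CD147KO-Migs. Most of these had few reads, since of the 10447 genes as abundant as the 31 only 6, 5 and 10 passed. Set against normo-Migs, hypo-Migs had lower levels of 29 of the 31 genes and higher levels of 2, STARD4 and ME1. Lower levels were seen for 50.3% of all genes tested and 52.7% of those as abundant. The median log2 fold change of the 31 genes was -0.13, against 0 for all genes. By the adjusted p alone, 20 of the 31 were lower and 0 higher. Over all genes, 13.2% were lower and 11.5% higher by that rule, and of the 10447 genes as abundant, 18.3% and 13.6%. All 7 mevalonate genes and all 11 squalene and sterol genes were on the lower side, 6 and 5 of them past the adjusted p. With scaling by library totals in place of TMM, 28 of the 31 were lower. With an assumed coefficient of variation of 0.1 between libraries, 0 of the 31 passed.

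INSIG1 differed most between hypo-Migs and normo-Migs, with a log2 fold change of -0.36 (-0.47 to -0.25) and an adjusted p of 3.47e-09 by the exact binomial test. Its levels in the 3 Mig libraries, 42.6, 33.2 and 31.2 CPM, put normo-Migs above both hypoxic preparations. MVK was next at -0.35 (-0.51 to -0.18), then FASN at -0.26 (-0.29 to -0.24) and FADS2 at -0.25 (-0.36 to -0.15). Close to these were PMVK at -0.25 (-0.38 to -0.12), MVD at -0.22 and FDPS at -0.22. The sterol enzymes past the adjusted p differed less, with -0.19 for NSDHL, -0.18 for EBP, -0.17 for LSS and -0.16 for DHCR7. FDFT1, at -0.092, also passed, whereas CYP51A1, at -0.21 (-0.46 to 0.026), did not. SREBF1, at -0.090 (-0.13 to -0.049), and SREBF2, at -0.093 (-0.14 to -0.045), were slightly lower. SQLE, at -0.064 (-0.16 to 0.029), and MSMO1, at -0.13 (-0.24 to -0.023), did not pass after adjustment, and SCD was lower by 0.036.

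Between hypo-Migs and CD147KO-Migs, 22 of the 31 genes were lower with hypo-Migs (49.9% of all genes, 49.8% of those as abundant) and 9 higher. The median of the 31 genes was -0.081 against 0.00038 for all genes. By the adjusted p alone, which 0 passed at an assumed coefficient of variation of 0.1, 12 were lower (12.7% of all genes, 16.0% of those as abundant) and 2, NSDHL and SCD, higher (12.4% and 15.8%). PMVK had the largest difference, -0.42 (-0.54 to -0.29), followed by MVK at -0.29 (-0.46 to -0.13), HSD17B7 at -0.28 (-0.48 to -0.076) and FADS2 at -0.21 (-0.31 to -0.098). SREBF1 was lower with hypo-Migs by 0.19 (-0.23 to -0.15) and SREBF2 by 0.097 (-0.14 to -0.050). The intervals spanned 0 for HMGCS1, at -0.0045 (-0.087 to 0.078), for STARD4, at 0.0020 (-0.090 to 0.094), and for ACACA, at 0.0011 (-0.047 to 0.049). INSIG1 did not pass, at 0.090 (-0.026 to 0.21).

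In the pair that leaves out hypo-Migs, normo-Migs against CD147KO-Migs, 23 genes were higher with normo-Migs and 8 lower. The shares higher were 50.3% of all genes and 53.1% of those as abundant. The median of the 31 genes was 0.053 against 0.0014 for all genes. By the adjusted p alone, which again 0 passed at that coefficient of variation, 10 were higher (13.2% of all genes, 18.5% of those as abundant) and 3 lower, which were PMVK, SREBF1 and ME1 (11.5% and 13.7%). INSIG1 was the furthest apart at 0.45 (0.34 to 0.56), then NSDHL at 0.35 (0.25 to 0.44) and FASN at 0.22 (0.19 to 0.25). HSD17B7 was at -0.21 (-0.42 to 0.00040) and did not pass. By rank, hypo-Migs was the lowest Mig library for 21 of the 31 genes (31.8% of all genes tested) and normo-Migs the highest for 23 (34.0%). The order from normo-Migs down through CD147KO-Migs to hypo-Migs held for 15 of the 31 genes, and for 16.1% of all genes. The 3 pairs share their libraries, so the counts are not independent of each other, and the hypo-Migs library was also the deepest.

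**Figure D2:**
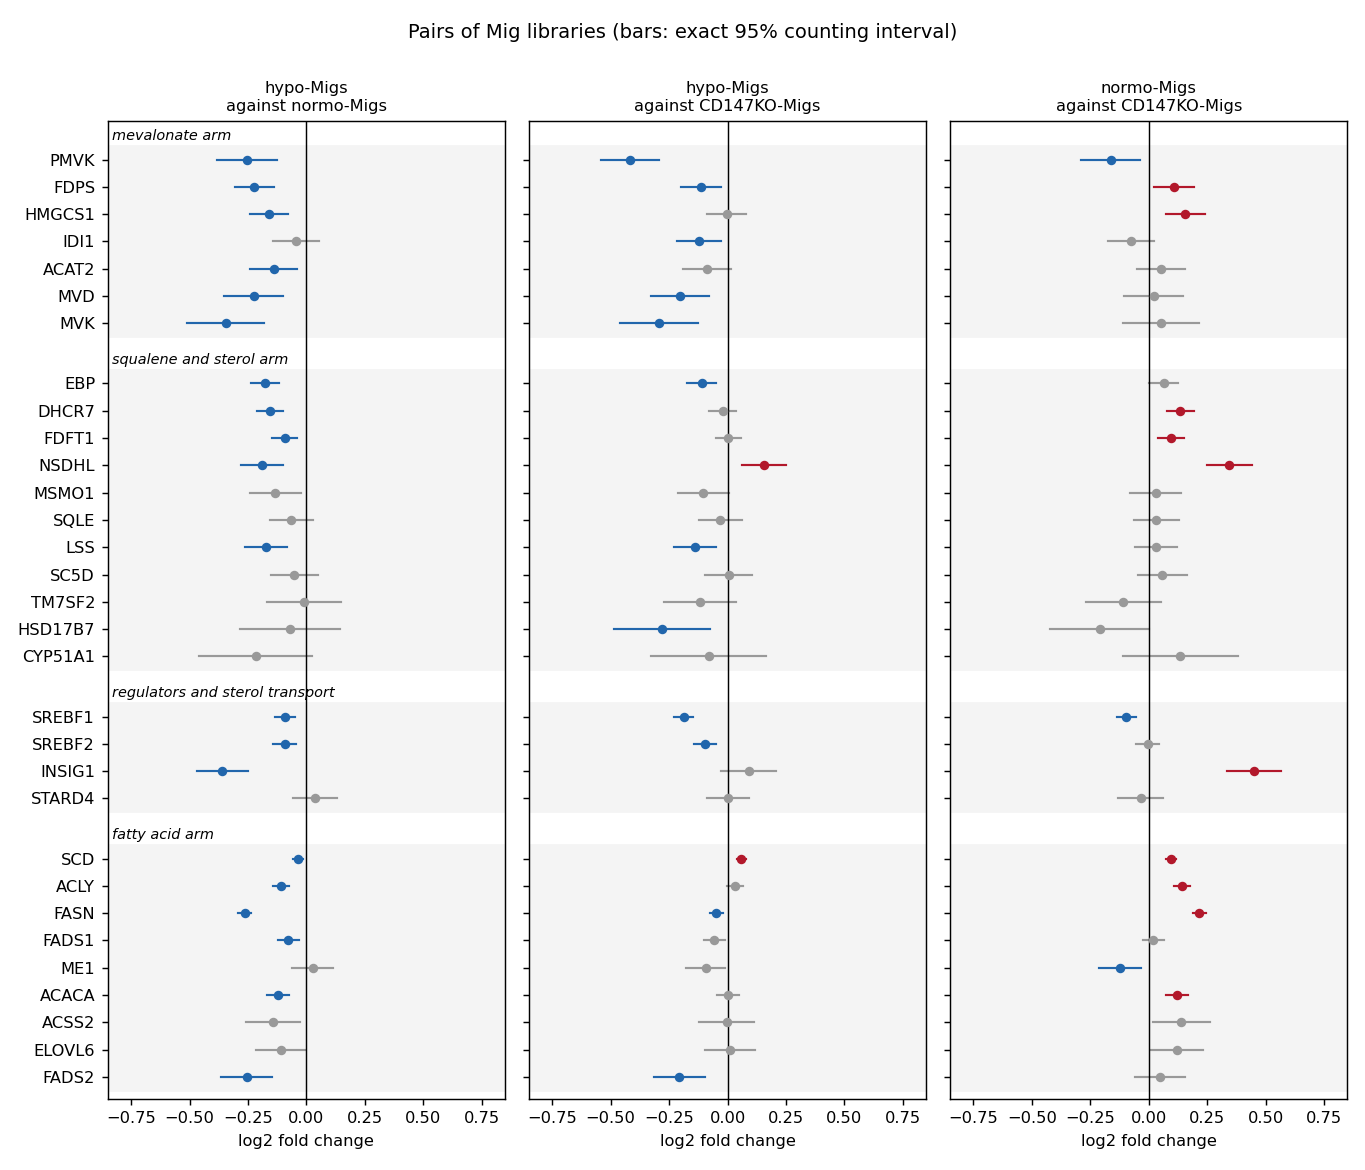
Log2 fold change of each of the 31 genes in the 3 pairs of Mig libraries, with exact 95% counting intervals as bars and colours as for the comparison with PBS. No point reaches an absolute value of 0.5, and in the left panel all points but STARD4 and ME1 lie below 0.

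**Figure D3:**
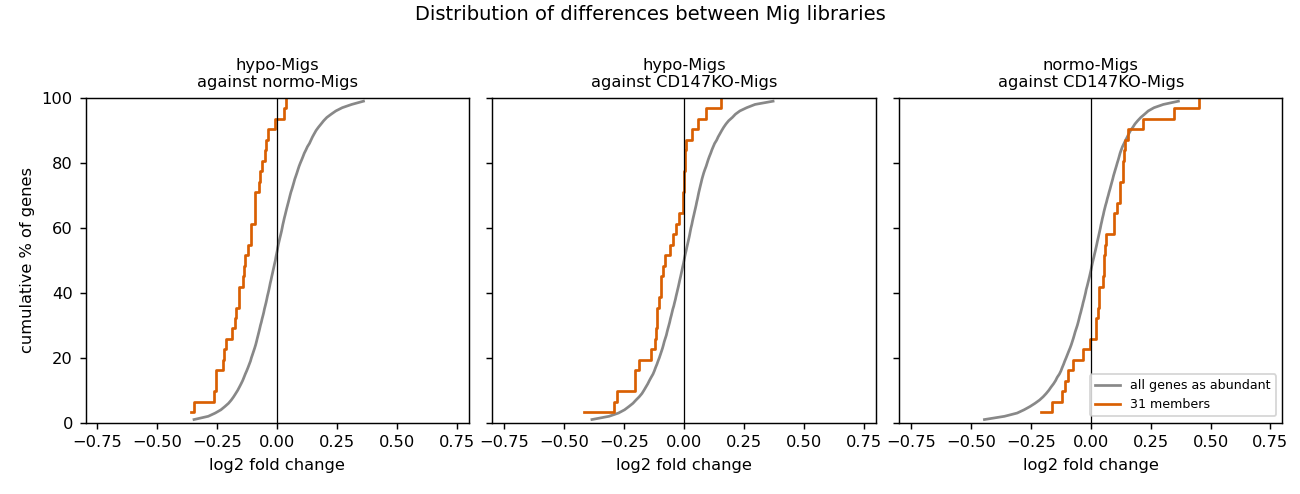
Cumulative share of genes (%) by log2 fold change in the 3 pairs of Mig libraries, for the 31 genes (orange steps) and the 10447 genes as abundant (grey line). Between hypo-Migs and normo-Migs the orange steps lie to the left of the grey line, with a median of -0.13, and between normo-Migs and CD147KO-Migs they lie mostly to its right, with a median of 0.053.

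Beyond the 31 genes, 101 other genes of lipid metabolism were listed in 7 roles, of which 94 were tested. Against PBS, 16, 18 and 18 of the 94 passed the criteria upwards and 8, 6 and 6 downwards. Of all genes tested, 16.5%, 17.4% and 16.6% passed upwards and 10.7%, 10.9% and 10.9% downwards, so that the upward counts were near those shares. Between hypo-Migs and normo-Migs 3 passed, between normo-Migs and CD147KO-Migs 1, and between hypo-Migs and CD147KO-Migs 0, where 4.9%, 4.91% and 5.04% of all genes tested passed. Reads are given for these genes, since several had next to none with PBS.

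Of the 11 genes for SREBP processing and control, 1, 0 and 1 passed the criteria in the 3 comparisons with PBS, in each case INSIG2 and downwards, where 10.7%, 10.9% and 10.9% of all genes tested passed downwards and 16.5%, 17.4% and 16.6% upwards. INSIG2, the second INSIG protein, had 1593, 658, 972 and 742 reads, with log2 fold changes of -1.25, -0.93 and -1.12, short of the limit with hypo-Migs. MBTPS1, the site-1 protease that first cuts SREBPs in the Golgi, had 10690, 5724, 6650 and 5876 reads (-0.88, -0.90 and -0.88). RNF139, a ubiquitin ligase of the endoplasmic reticulum, had 750, 1190, 1342 and 1118 reads (0.68, 0.62 and 0.55). SCAP had log2 fold changes of 0.036, -0.053 and -0.097. INSIG1 and INSIG2 were therefore both lower in every Mig library than with PBS. Among the other sterol and isoprenoid enzymes, LBR, a sterol reductase of the nuclear envelope, had 3197, 4541, 5544 and 4349 reads, GGPS1, which makes geranylgeranyl diphosphate, 413, 180, 284 and 253, and HSD3B7, an enzyme of bile acid synthesis, 572, 179, 294 and 168. LBR was lowest with PBS, whereas GGPS1 and HSD3B7 were highest with PBS.

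Of the 10 LXR and sterol efflux genes tested, 3, 4 and 3 passed the criteria upwards in the 3 comparisons with PBS and 1, 0 and 0 downwards, and of the 10 genes of sterol esters and lipid droplets 2, 3 and 3 upwards and 2, 3 and 2 downwards. The shares of all genes tested were 16.5%, 17.4% and 16.6% upwards and 10.7%, 10.9% and 10.9% downwards, and roles of 10 genes are too small to set apart from them. ABCA1, which exports cholesterol to apolipoproteins and is an LXR target, had 2, 429, 714 and 788 reads. ABCG1, a related exporter, had 18, 146, 310 and 204 reads, and PLTP, the phospholipid transfer protein, 15, 442, 410 and 414 reads. All 3 had 18 reads or fewer with PBS. Among the Mig libraries, ABCG1 was higher with hypo-Migs than with normo-Migs by 0.84 (0.56 to 1.14) on the log2 scale, while ABCA1 was highest with CD147KO-Migs. The LXR receptors themselves, NR1H2 (2317, 1825, 2028 and 1846 reads) and NR1H3 (1058, 1135, 1271 and 1204 reads), did not pass the criteria, nor did the LXR targets MYLIP (234, 217, 309 and 269 reads) and LPCAT3 (927, 990, 1178 and 1004 reads). PLIN2, a coat protein of lipid droplets, had 2, 3456, 3756 and 3035 reads. The droplet genes HILPDA, an inhibitor of lipolysis, and PLIN3, a further coat protein, were highest with PBS, at 2138, 522, 631 and 558 and 6460, 2893, 3168 and 3017 reads, and passed downwards in all 3 comparisons. SOAT2, a cholesterol acyltransferase, and CIDEC, a droplet fusion protein, had 11, 7, 0 and 5 and 0, 1, 7 and 10 reads, too few to rank. PLIN5, another droplet coat protein, had 2, 30, 13 and 26 reads and passed the criteria between hypo-Migs and normo-Migs, where SOAT2 passed as well. Both were lower with hypo-Migs, whereas 1 LXR and sterol efflux gene, not named here, passed upwards in that pair. CIDEC was the gene that passed between normo-Migs and CD147KO-Migs. In sterol uptake and traffic, NPC2, which hands cholesterol out of the lysosome, had 961, 2217, 2672 and 2211 reads and was the only gene of that role past the criteria, with log2 fold changes of 1.22, 1.26 and 1.18. LRP1, an endocytic lipoprotein receptor, had 4193, 7298, 9412 and 8271 reads (0.82, 0.95 and 0.96). ABCA1 and PLIN2 are among the 251 genes on which the PBS library had 3 reads or fewer, and the Migs and the library cannot be told apart as their source.

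Other genes of fatty acid and triglyceride synthesis numbered 29, and 8, 8 and 9 of them passed the criteria upwards in the 3 comparisons with PBS, with 1, LPIN2, downwards in each. These are 8 or 9 of 29 beside 16.5%, 17.4% and 16.6% upwards over all genes tested. LPIN2, a phosphatidate phosphatase, had 2621, 1211, 1357 and 1224 reads. ELOVL3 and ELOVL4, elongases of very long chains, had 0, 469, 534 and 489 and 0, 67, 72 and 66 reads, and were at 0 with PBS. THRSP, a lipogenic nuclear protein, had 2, 25, 44 and 34 reads. In fatty acid oxidation, ACADL, the long-chain acyl-CoA dehydrogenase, had 0, 70, 102 and 69 reads, whereas ACADVL, the very long-chain enzyme, had 21610, 8768, 10086 and 9628 reads, highest with PBS. PPARGC1A, a coactivator of mitochondrial genes, had 399, 928, 1286 and 1063 reads, with log2 fold changes of 1.23, 1.47 and 1.39. In oxidation as a whole, 2 of 15 tested genes passed upwards and 1 downwards in each of the 3 comparisons, no larger a share than among all genes tested.

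**Figure D4:**
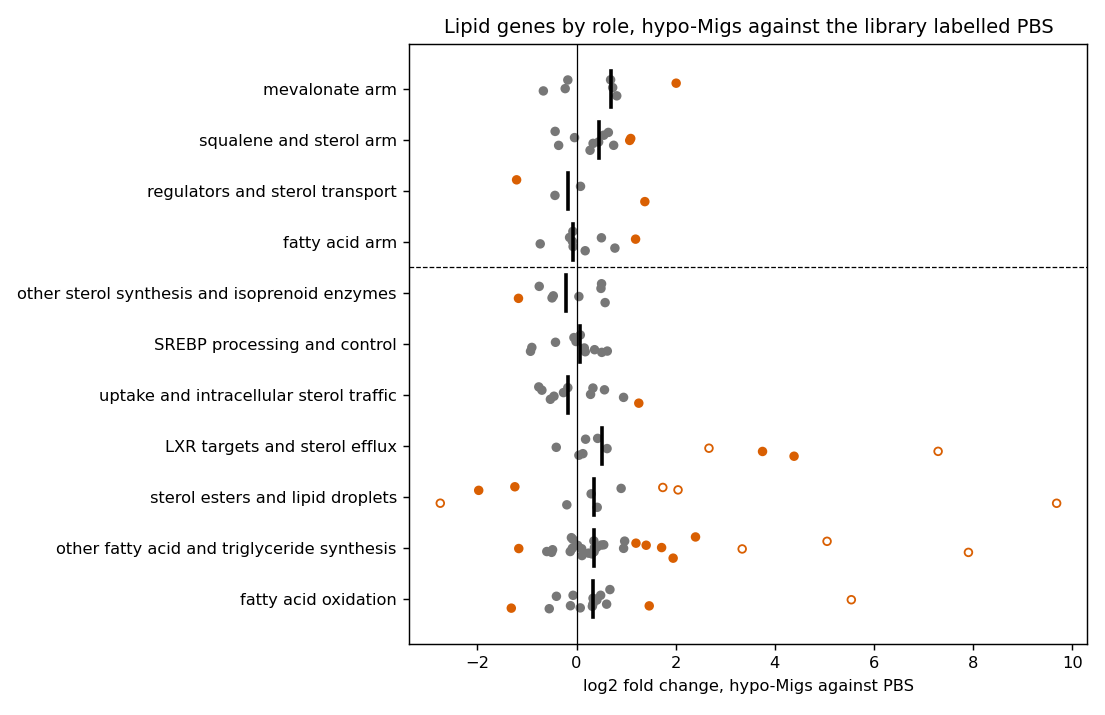
Log2 fold change of lipid genes between hypo-Migs and the library labelled PBS, by role, with the 4 arms of the 31 genes above the dashed line and 7 further roles below it. Points are genes (orange past the criteria, open where a library had 3 reads or fewer, so that the value depends on the prior count) and black bars are medians, and the widest spread is among efflux, droplet and other fatty acid genes, while the 31 genes stay between -1.21 and 2.01.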

How the data were processed

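The authors extracted total RNA from the treated cells, prepared mRNA libraries and deposited 2 tables. One holds raw counts, the reads counted per gene without normalization, and the other FPKM, which the authors scaled by gene length and library size. Per the submitters' processing notes, CASAVA 1.8, fastp, HISAT2 2.0.5, featureCounts 1.5.0-p3 and hg38 were used. The strand setting was not given in the sources used here, so reads of genes that overlap on opposite strands cannot be told apart. The labels name a SMARTER mRNA kit. The 31 genes have the coordinates of GENCODE 29.

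Reads were analysed with R 4.3.3, edgeR 4.0.16 and DESeq2 1.42.0. Tests covered the 19895 genes that reached 10 reads in 1 library or more, scaled by TMM (factors 1.02, 0.986, 0.996 and 0.999), with edgeR's exact binomial test. Quasi-likelihood tests have no residual degrees of freedom here. A prior count of 2 entered the log2 fold changes, and ratios were given exact 95% intervals. A count of 0 allows up to 3 reads, 0.0869 CPM with PBS and 0.0747 CPM with hypo-Migs.

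The 31 genes and the other lists were chosen with earlier results of these data known. Named were the regulators and the best known steps, the 4 genes with the largest change in each pair, and, of the other lipid genes, the 3 per role that differed most between hypo-Migs and PBS and those past the criteria between Mig libraries. Further genes were named where a small count needed it or for context, after their values were seen. Some genes that the rule names are not reported here. Procedures were tested on simulated data.

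Alternatives used library totals or DESeq2 size factors, other filters, a prior count of 0.25, an assumed coefficient of variation (0.1 or 0.4), DESeq2 with the 4 libraries as replicates, FPKM with pseudocounts of 1 and 0.1, and the 3 Mig libraries alone. After the data had been seen, a smooth trend of fold change on GC content and length (mgcv 1.9.3, genes averaging 50 reads or more) was also removed. The residuals were first centred on their mean, and the centring on their median was chosen after that first version had been seen. Values of both are given. Figures were drawn with matplotlib 3.10.9.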

Additional observations from a re-analysis of the deposited data

How the results depend on the processing

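No paired analysis was possible because each condition had 1 library, and no replicate could be left out for the same reason. With an assumed coefficient of variation of 0.1, the genes past the adjusted p against PBS numbered 16, 16 and 15 in place of 25, 28 and 26, and 0 in each pair of Mig libraries in place of 20, 14 and 13. With 0.4, 0 of the 31 passed in all 6 pairs by either rule, in place of 6, 6 and 7 by the criteria of the study against PBS. Of all genes tested, 1535, 1633 and 1575 passed the criteria against PBS with 0.4. DESeq2 over the 4 libraries also passed 0 of the 31 in all 6 pairs by either rule, but 0 of all genes tested passed the criteria there. These settings add spread between libraries by construction. Removing the trend on GC content and length left the medians against PBS at 0.40, 0.26 and 0.25 with residuals centred on their median, and FASN went from -0.048 to 0.036 between hypo-Migs and CD147KO-Migs. In the version run first, with residuals centred on their mean, the medians of the 31 genes were 0.13, -0.024 and -0.032, and those of all genes fitted -0.23, -0.24 and -0.25. That version put FASN at 0.038 in the same pair and left 17, 15 and 15 of the 31 genes higher than PBS in place of 23, 18 and 21. Of the 19 genes named by rule, it turned 8 values that had passed against PBS negative, namely FADS2 (-0.067) and SREBF2 (-0.065) with normo-Migs, ACACA (-0.13) and SREBF2 (-0.13) with hypo-Migs, and ACACA (-0.13), FADS2 (-0.14), NSDHL (-0.032) and SREBF2 (-0.080) with CD147KO-Migs. Of the other 12 genes, EBP with hypo-Migs (-0.024) did so as well. The centrings differ by a shift common to all genes, and on the median 23, 18 and 21 of the 31 genes were higher. With library totals in place of TMM, the genes lower with hypo-Migs than with normo-Migs numbered 28, and 18 of them passed the adjusted p. The 19 genes were the ones run singly under every alternative. Of their values, 1100 counted as unchanged. With a test, these kept their side of the threshold, and without a test they stayed inside their interval. A change of sign was counted only where a value had passed. Values near 0 that did not pass may therefore have changed sign within the 1100. The settings without a test held 114 of the 1100 with log2(FPKM + 0.1), 104 with log2(FPKM + 1), and 104 and 53 without the trend. A further 242 no longer passed, 2 newly passed, 71 moved beyond their interval (10 with log2(FPKM + 1), 9 and 52 without the trend) and 10 reversed. Depth limited CYP51A1, which averaged 272 reads and had intervals against PBS from -0.29 to 0.42, and among the other lipid genes SOAT2 and CIDEC.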
